A study of Mus musculus with 28 samples.

Results

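The interferon-stimulated genes described here are 39 genes whose transcription is induced by interferons, chosen by name. All 39 names were found, once each, among the 45513 genes of the count table. All 39 also passed the filter on low counts that left 24273 genes for testing. They fall into 7 groups by role: 5 sensors, 4 transcription factors, 3 IFIT proteins, 5 members of the OAS family, 7 GTPases of the GBP and IRG families, 7 Mx, membrane or nucleotide effectors, and 8 genes of the ISG15 system with regulators and others.

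The RNA came from ventricular myocardium of 28 adult male C57BL/6 mice, 1 library per mouse. At 6 weeks of age mice had a 5/6 nephrectomy, which removes most of the kidney mass in stages to model chronic kidney disease (CKD), or a sham operation. On day 7 each mouse was gavaged once with Oxalobacter formigenes (Oxf), a gut bacterium that degrades oxalate, or with its culture medium (vehicle). The 4 groups are CKD-Oxf with 7 mice, CKD-vehicle with 6, sham-Oxf with 5 and sham-vehicle with 10. All mice, controls included, ate a diet with 1% hydroxyproline, an oxalate precursor, and 0.5% calcium, and hearts were perfused with PBS at collection. The design describes 10 mice a group, and the remaining mice were not analysed here. Replicates were numbered within each group in the order of the records, so the numbers pair nothing.

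Interferons are secreted proteins that cells release when they sense viral nucleic acid, bacteria or damage. Type I interferons bind a receptor whose signal leads a complex that contains STAT2 and IRF9 to the interferon-stimulated response element (ISRE) in promoters. Interferon gamma, made mainly by T and NK cells, acts through gamma-activated sites and through IRF1, and is the strongest inducer of the GBP and IRG GTPases. In the unchallenged heart most of these genes are transcribed at a low basal level, by macrophages, endothelial cells, fibroblasts and cardiomyocytes alike.

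RefSeq promoter windows on GRCm38.p6, from 250 bases before to 50 bases after the start, were at hand for 30 of the 39 genes. The core of the ISRE, searched on both strands as GAAA, any 2 bases and GAAA, stood in a window of 18 of the 30 (60.0%), against 3.99% of 27025 genes with a window. The letters TTCNNNGAA of the gamma-activated site, which read the same on both strands, stood in 11 of the 30 (36.7%), against 9.55%. The 2 motifs overlapped in 2 windows, 7 genes held both and 8 held neither. All 6 GTPase genes with a window held the first motif, and 3 of them the second. Sequences are shown for 5 named genes, taken among those that hold the first motif by smallest p for Oxf averaged over surgery. Each therefore shows a match by choice. Ifi44 and Oasl2 held neither motif, and Iigp1 and Oas2 had no window. In the sequences below capitals mark matches to the ISRE core on either strand. The stretches are the 200 bases before the RefSeq start of the 5 genes, 5′ to 3′ on the gene's strand. They lie at chr19:34583329-34583528 on the plus strand (Ifit3), chr11:48871421-48871620 on the minus strand (Irgm1), chr3:142620463-142620662 on the plus strand (Gbp2), chr11:58199356-58199555 on the plus strand (Igtp) and chr4:156200819-156201018 on the minus strand (Isg15).
Ifit3: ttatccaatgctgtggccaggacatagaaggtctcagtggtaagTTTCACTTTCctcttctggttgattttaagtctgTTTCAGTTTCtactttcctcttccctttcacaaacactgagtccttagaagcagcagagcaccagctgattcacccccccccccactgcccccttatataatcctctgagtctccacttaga
Irgm1: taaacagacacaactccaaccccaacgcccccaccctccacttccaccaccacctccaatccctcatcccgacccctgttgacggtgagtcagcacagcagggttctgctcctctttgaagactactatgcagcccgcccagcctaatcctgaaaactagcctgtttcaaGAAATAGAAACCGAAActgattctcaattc
Gbp2: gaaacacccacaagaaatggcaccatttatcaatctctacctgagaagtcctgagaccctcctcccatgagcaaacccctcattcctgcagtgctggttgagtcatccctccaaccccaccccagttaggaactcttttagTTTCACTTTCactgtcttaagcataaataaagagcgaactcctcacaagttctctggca
Igtp: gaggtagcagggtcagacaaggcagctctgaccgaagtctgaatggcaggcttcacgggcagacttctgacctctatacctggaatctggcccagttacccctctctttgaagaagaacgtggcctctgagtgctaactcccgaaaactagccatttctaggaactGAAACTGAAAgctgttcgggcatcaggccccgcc
Isg15: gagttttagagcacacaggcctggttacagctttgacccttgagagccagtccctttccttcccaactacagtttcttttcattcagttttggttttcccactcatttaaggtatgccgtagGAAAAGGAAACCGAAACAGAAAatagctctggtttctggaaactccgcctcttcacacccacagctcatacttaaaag
In Ifit3 the 2 matches lie 112 and more bases before the start. In Irgm1 the 2 matches overlap and end 14 bases before it. Isg15 holds 3 overlapping matches, the last ending 56 bases before its start. All these distances are to the RefSeq start. GENCODE M21 starts Irgm1 at 48871683 and Gbp2 at 142620602. By that annotation the Irgm1 stretch and the end of the Gbp2 stretch lie inside the gene. A match is a run of letters and no measured binding site.

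Libraries held 19.8 to 65.4 M counts (M for mega). The lowest group mean was 31.2 ± 6.94 M in sham-Oxf (SD, n = 5) and the highest 48.0 ± 10.5 M in CKD-vehicle (SD, n = 6). Single libraries departed from the rest. Sham-Oxf replicate 1 had the fewest counts (19.8 M) and 15879 genes with a count, against 27128 to 33995 elsewhere. It was the lowest of the 28 libraries for 45.6% of all genes tested and the highest for 14.1%. Of 15 macrophage and leukocyte markers, 5 had no count there (Cd68, Cx3cr1, Fcgr1, Itgam and Tyrobp). That list still summed to 194 counts per M, the median of sham-Oxf, and T, B and dendritic cell markers also held zeros. CKD-vehicle replicate 4 stood apart for the GTPases, as described further on, with an ordinary depth of 42.9 M. A clock score, the mean log2 CPM of genes around Dbp and Per1 minus that of genes around Arntl and Npas2, ran from -0.102 to 2.31 in CKD-vehicle and from 2.39 to 4.07 in CKD-Oxf. In CKD, gavage and clock score therefore cannot be told apart. In sham the score ran from 0.984 to 4.23 with vehicle and from 3.24 to 4.47 with Oxf. These ranges overlapped only at their ends, so gavage and clock score were partly confounded in sham too. Cardiomyocyte markers were high in every library (summed 47180 to 97585 counts per M, CPM), as the tissue label says.

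Basal levels differed widely between the genes. Per kilobase of exon, so that genes of different length can be set side by side, Ifitm3 stood highest with a mean level of 30.2 CPM per kilobase over the 28 libraries. It codes for a membrane protein that blocks virus entry. Next came Parp14, an ADP-ribosyltransferase, at a level of 7.73, and Stat2, a transcription factor of the type I response, at 7.33 CPM per kilobase. The lowest levels were those of Oas3, at 0.0836, and of Mx1, at 0.268 CPM per kilobase. Mx1 codes for an antiviral dynamin-like GTPase, and common inbred laboratory strains carry a defective allele of it. Bulk RNA does not separate fewer cells of a type from less RNA per cell, and this holds for each level given here.

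**Figure D1:**
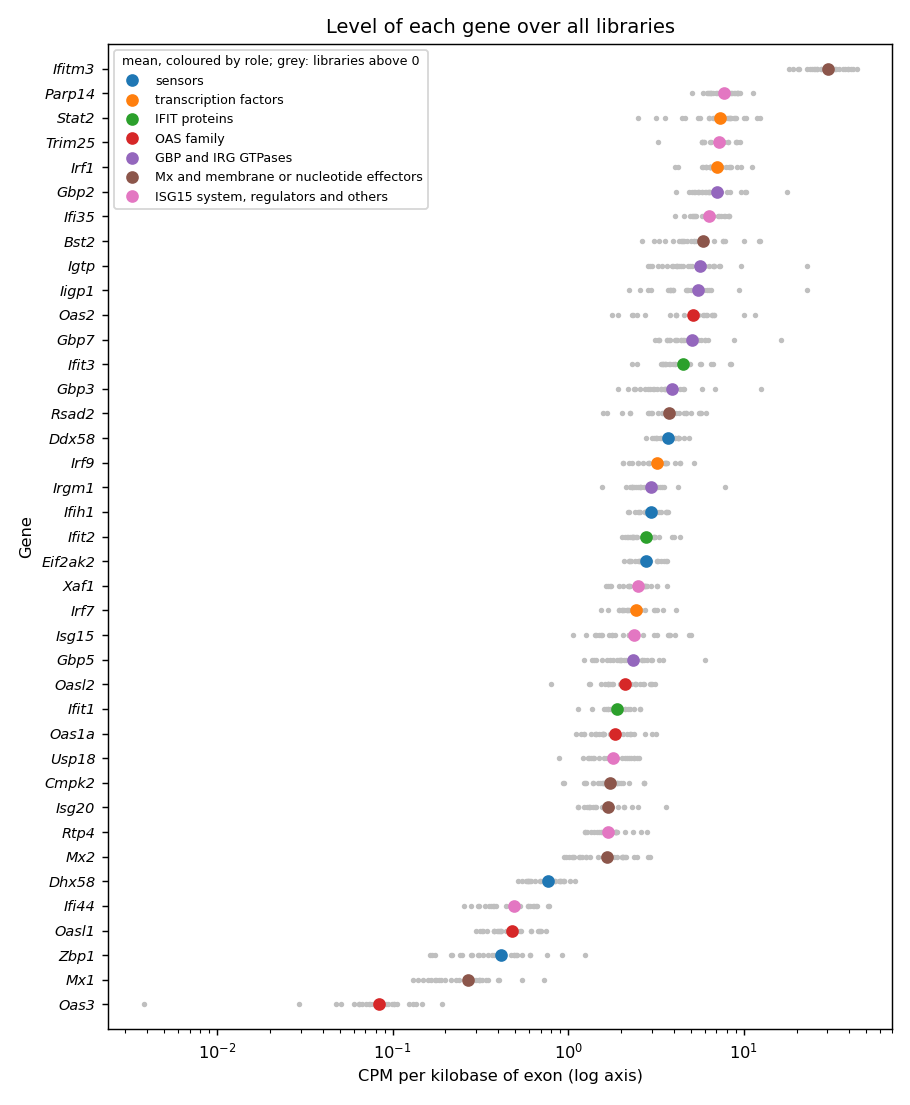
Level of each of the 39 genes in CPM per kilobase of exon on a log axis. Coloured points are means over 28 libraries, grey points are libraries above 0, and colour gives the role. Ifitm3 (30.2) and Oas3 (0.0836) mark the ends of the range.

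No interferon-stimulated gene passed an adjusted p of 0.05 in any of the 7 comparisons (edgeR quasi-likelihood test, Benjamini-Hochberg over 24273 genes). Over all genes the share that passed was 0.00824% for CKD-vehicle against sham-vehicle and 0.0330% for CKD-Oxf against CKD-vehicle. It was 2.81% for Oxf averaged over surgery, and 0% for the other 4 comparisons. In most of these comparisons almost nothing passed anywhere, so 0 of 39 is near the background, and it does not show that the genes did not differ. At an unadjusted p under 0.05 the counts were 3 of 39 for CKD-vehicle against sham-vehicle (all genes 4.46%), 8 for CKD-Oxf against CKD-vehicle (13.1%) and 0 of 39 for sham-Oxf with its vehicle controls (12.6%). Further counts were 2 for CKD-Oxf against sham-Oxf (8.23%), 9 for Oxf averaged over surgery (23.0%), 1 for CKD averaged over gavage (10.6%) and 2 for the interaction (3.55%). DESeq2 and limma voom called 0 of the 39 for the interaction, for CKD averaged over gavage and in 3 of the 4 pairwise comparisons, the exception being CKD-Oxf against CKD-vehicle with limma voom. At an unadjusted p under 0.05 DESeq2 had 3 for CKD-vehicle against sham-vehicle (all genes 5.75%), 3 for sham-Oxf with its controls (14.5%), 4 for CKD-Oxf against sham-Oxf (9.60%), 1 for CKD averaged over gavage (12.5%) and 4 for the interaction (4.27%). Limma voom had 9 (all genes 21.5%), 0 (15.5%), 5 (8.17%), 8 (19.5%) and 4 (6.19%) in the same order. With CKD-vehicle replicate 4 and sham-Oxf replicate 1 both left out, edgeR called 0 of 39 for Oxf averaged over surgery, against 1.27% of all genes.

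The mean log2 CPM over all 39 genes, a score, lay close together in the 4 groups. It was 3.09 ± 0.21 in sham-vehicle (SD, n = 10; 2.82, 3.11 and 3.52 as lowest, median and highest) and 3.13 ± 0.32 in CKD-vehicle (n = 6; 2.83, 3.08 and 3.73). In sham-Oxf it was 2.88 ± 0.25 (n = 5; 2.47, 2.83, 3.03, 3.0 and 3.10), and in CKD-Oxf 3.20 ± 0.24 (n = 7; 2.79, 3.22 and 3.52). The ranges of all groups overlapped, for the whole set and for each of the 7 roles. The highest value was that of CKD-vehicle replicate 4 and the lowest that of sham-Oxf replicate 1. CKD-vehicle lay 0.04 above sham-vehicle with all libraries and 0.109 below it without replicate 4. Sham-Oxf lay 0.211 below sham-vehicle with all libraries and 0.107 below it without replicate 1.

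**Figure D2:**
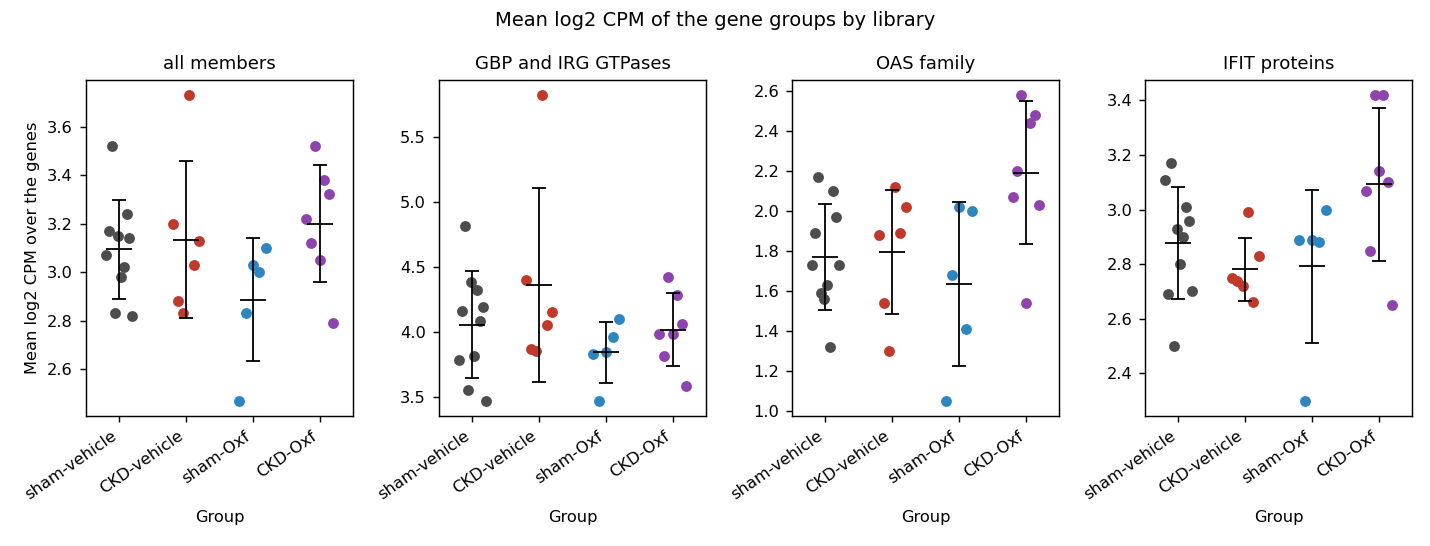
Mean log2 CPM over all 39 genes, the 7 GTPases, the 5 OAS genes and the 3 IFIT genes in each library (points), by group. Horizontal marks are group means and bars 1 SD. The groups overlap in each panel, and 1 CKD-vehicle library at 5.82 stands above the rest in the GTPase panel.

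**Figure D3:**
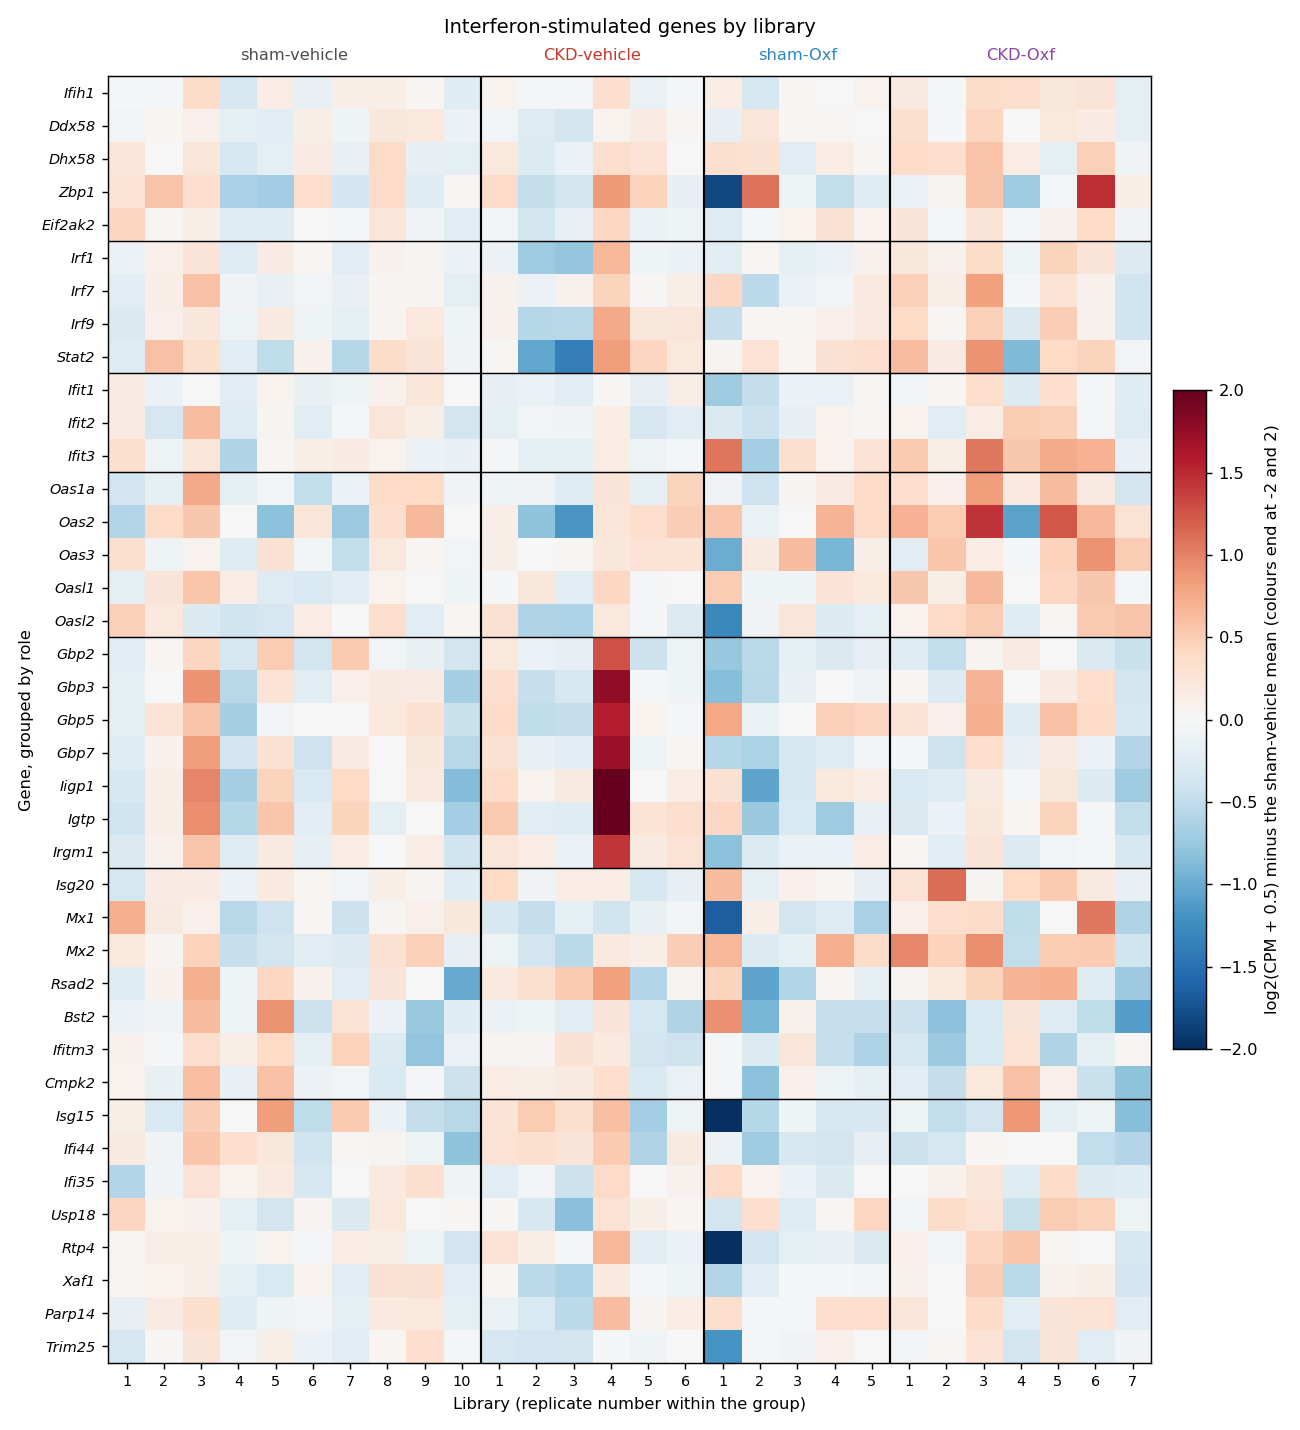
Each gene (rows, grouped by role) in each library (columns, grouped and numbered by replicate), as log2(CPM + 0.5) minus the sham-vehicle mean. Red is higher and blue lower, with colours ending at -2 and 2. The GTPase block is darkest red in CKD-vehicle replicate 4, and sham-Oxf replicate 1 holds the dark blue cells of Isg15, Rtp4, Zbp1 and Mx1.

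The sensors recognise foreign or misplaced nucleic acid. Ddx58 (RIG-I) and Ifih1 (MDA5) bind viral RNA, Dhx58 (LGP2) regulates them, Zbp1 binds Z-form nucleic acid, and Eif2ak2 (PKR) stops translation on double-stranded RNA. Ddx58, the most abundant of them by CPM, ranged narrowly. Its lowest, median and highest levels were 21.6, 25.3 and 29.8 CPM in sham-vehicle, 19.7, 25.2 and 28.6 in CKD-vehicle and 22.4, 28.6 and 34.3 in CKD-Oxf. In sham-Oxf it was 22.7, 30.3, 25.8, 26.2 and 25.4 CPM, inside the range of the other groups. All 5 sensors had estimates above 0 for CKD-Oxf against CKD-vehicle, against 53.2% of all genes. Their log2 differences were 0.14 to 0.21, none past an unadjusted p of 0.05. With the clock score as a covariate 4 of the 5 were above 0, the lowest at -0.27. Zbp1 varied most among the sensors, from 0 counts in sham-Oxf replicate 1 to 4.42 CPM in CKD-Oxf replicate 6.

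The transcription factors carry the signal to the promoters. Stat2 and Irf9 are parts of the ISRE-binding complex, Irf7 amplifies type I interferon production, and Irf1 drives many gamma-responsive promoters. Stat2 spread widely within groups. Its lowest, median and highest levels were 26.4, 39.6 and 59.4 CPM in sham-vehicle, 14.9, 42.5 and 70.2 in CKD-vehicle and 21.0, 51.9 and 73.3 in CKD-Oxf, and in sham-Oxf it was 40.6, 48.3, 40.1, 48.8 and 49.6 CPM. The lowest library of all, CKD-vehicle replicate 3 at 14.9 CPM, and the second highest, replicate 4 at 70.2 CPM, belong to the same group. Irf7, whose exons overlap those of Phrf1 on the other strand, ran from 5.81 to 15.5 CPM, the highest in CKD-Oxf replicate 3. For CKD-Oxf against CKD-vehicle the estimates of the 4 factors lay between 0.05 and 0.28 on the log2 scale, none past an unadjusted p of 0.05. With the clock score as a covariate they ran from -0.25 to 0.23, and 2 of the 4 were below 0. With no covariate and CKD-vehicle replicate 4 left out, Irf1 was at 0.50 ± 0.14 (unadjusted p = 0.00133, adjusted p = 0.289, edgeR). Stat2 was then at 0.50, Irf9 at 0.22 and Irf7 at 0.20 for CKD-Oxf against CKD-vehicle. For CKD-vehicle against sham-vehicle Irf1 was then at -0.37 ± 0.13 (unadjusted p = 0.00825, adjusted p = 0.981, edgeR). Stat2 was there at -0.27, Irf9 at -0.11 and Irf7 at -0.00. With all libraries Irf1 was at 0.28 and -0.12 in these 2 comparisons (unadjusted p = 0.104 and 0.440, edgeR). Replicate 4 was the highest of all 28 libraries for Irf1, at 44.5 CPM, and was singled out after its values were seen. Leaving it out lowers the CKD-vehicle mean that both comparisons share, so the values without it are description only.

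The IFIT genes lie side by side on chromosome 19 and code for proteins that bind foreign RNA ends and stop their translation. Ifit3 (chromosome 19, 34583531 to 34588731, GRCm38, plus strand) had the smallest p of the 39 for Oxf averaged over surgery and for CKD-Oxf against CKD-vehicle. Its lowest, median and highest levels were 4.30, 7.01 and 8.59 CPM in sham-vehicle, 5.90, 6.38 and 7.51 in CKD-vehicle and 6.08, 10.0 and 14.5 in CKD-Oxf. In sham-Oxf the 5 libraries stood at 14.8, 4.03, 8.54, 7.11 and 8.41 CPM. Of the 7 CKD-Oxf libraries 5 were above every CKD-vehicle library, but the ranges overlapped, and the sham-Oxf libraries held both the highest and the lowest value of all 28. The log2 difference for Oxf averaged over surgery was 0.48 ± 0.15 (SE, adjusted p = 0.0608, edgeR). For CKD-Oxf against CKD-vehicle it was 0.65 ± 0.21 (adjusted p = 0.230, edgeR). Neither passed. For the averaged comparison Ifit3 did pass with DESeq2 and with upper quartile scaling, and not with limma voom. Without sham-Oxf replicate 1, its highest library, Ifit3 was at 0.34 ± 0.13 (adjusted p = 0.105, edgeR). With the clock score as a covariate it was at 0.63 ± 0.23 (adjusted p = 0.693, edgeR). Ifit3 is nearly identical to its neighbour Ifit3b, and how reads that match both were counted is not given in the sources used here, so both values are uncertain.

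Ifit1 and Ifit2, the neighbours of Ifit3, gave smaller differences. For CKD-Oxf against CKD-vehicle the log2 differences were 0.13 ± 0.15 for Ifit1 and 0.25 ± 0.16 for Ifit2. Within sham, Oxf against vehicle, both were below 0, at -0.29 ± 0.15 and -0.18 ± 0.16. Ifit1 was lowest in sham-Oxf replicate 1, at 3.04 CPM, the same library in which Ifit3 was highest, at 14.8 CPM. Thus 2 genes of 1 cluster stood at opposite ends in that library, which was the lowest for 45.6% of all genes tested and the highest for 14.1%.

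The OAS proteins make 2-5A, which activates RNase L to degrade RNA, while the OAS-like proteins Oasl1 and Oasl2 regulate sensing and are not all active enzymes. All 5 genes had estimates above 0 in CKD-Oxf against CKD-vehicle (0.31 to 0.72 on the log2 scale, median 0.37), against a median of 0.03 over all genes tested. Over all genes 53.2% of the estimates were above 0. Of the 5 OAS genes, 2 had an unadjusted p under 0.05, against 13.1% of all genes. With the clock score as a covariate 3 of the 5 estimates were above 0 and the median was 0.25. The clock scores of CKD-vehicle and CKD-Oxf did not overlap, so that fit cannot settle the direction. Oas2, the most abundant by CPM, stood at 7.96, 21.2 and 26.2 CPM (lowest, median and highest) in CKD-vehicle and at 8.61, 29.2 and 51.4 in CKD-Oxf. In sham-vehicle the values were 10.3, 20.2 and 29.4 CPM, and in sham-Oxf the 5 libraries stood at 27.6, 16.9, 18.4, 30.0 and 24.3 CPM. The groups overlapped, since CKD-Oxf held both the highest library and, with replicate 4 at 8.61 CPM, the second lowest. The log2 difference for CKD-Oxf against CKD-vehicle was 0.72 ± 0.31 (adjusted p = 0.332, edgeR).

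Oasl2 had the smallest p of the 39 for CKD-Oxf against sham-Oxf and for the interaction. Its lowest, median and highest levels were 8.37, 11.9 and 16.3 CPM in CKD-vehicle, 11.1, 17.3 and 19.8 in CKD-Oxf and 9.87, 13.4 and 18.6 in sham-vehicle. The sham-Oxf libraries stood at 5.07, 12.5, 15.6, 10.8 and 11.5 CPM, so the first of them lay below all other libraries. CKD-Oxf against sham-Oxf differed by 0.54 ± 0.22 on the log2 scale (adjusted p = 0.468, edgeR), and the interaction was 0.70 ± 0.29 (adjusted p = 1.000, edgeR). Neither passed.

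The GBP and IRG GTPases assemble on membranes around intracellular bacteria and parasites. Gbp2, Gbp3, Gbp5 and Gbp7 form a cluster on chromosome 3, Irgm1 and Igtp lie apart on chromosome 11, and Iigp1 lies on chromosome 18. Igtp shares exon sequence with its neighbour Irgm2 on the same strand, so their counts are not fully separate. Iigp1, the most abundant of the 7 by CPM, stood at 133 CPM in CKD-vehicle replicate 4 and at 27.8 to 36.1 CPM in the other 5 CKD-vehicle libraries. Its lowest, median and highest levels were 14.9, 29.0 and 54.7 CPM in sham-vehicle and 16.7, 23.0 and 32.3 in CKD-Oxf. In sham-Oxf it was 34.4, 13.0, 21.7, 32.2 and 30.6 CPM. A single library was thus far above the other 27, whose highest value was 54.7 CPM.

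The same library was the highest of all 28 for each of the 7 GTPases. Against the median of the other 5 CKD-vehicle libraries the folds ran from 2.42 (Irgm1) to 4.31 (Iigp1), with a median of 3.60. Igtp stood there at 46.6 CPM, Gbp7 at 91.7, Gbp2 at 44.4 and Irgm1 at 45.2 CPM. Over all 39 genes 12 were highest in that library, against 0.721% of all genes tested, and 8 were at least 2-fold above that median, against 2.27%. The 8th was Zbp1. The library was singled out after its values were seen, so these counts describe it and test nothing.

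The IFIT and OAS genes did not share this level. In CKD-vehicle replicate 4 the IFIT folds were 1.16 to 1.27 and the OAS folds 1.09 to 1.52, and none of these 8 genes was highest there. Among 81 other interferon-induced genes on a list, 79 were tested and 15 were at least 2-fold higher in that library. They included Gbp4 at 205 CPM (3.98-fold), Tgtp1 at 108 CPM (4.27-fold) and Cd274, which codes for PD-L1, at 23.5 CPM (3.71-fold). Nlrc5, Psmb9 and Tap1 of MHC class I presentation were 2.70-fold, 2.47-fold and 2.26-fold higher. Other genes of that pathway were below 2-fold, with Psmb8 at 1.69, Psmb10 at 1.46, Tap2 at 1.44, B2m at 1.27 and Tapbp at 1.16.

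**Figure D4:**
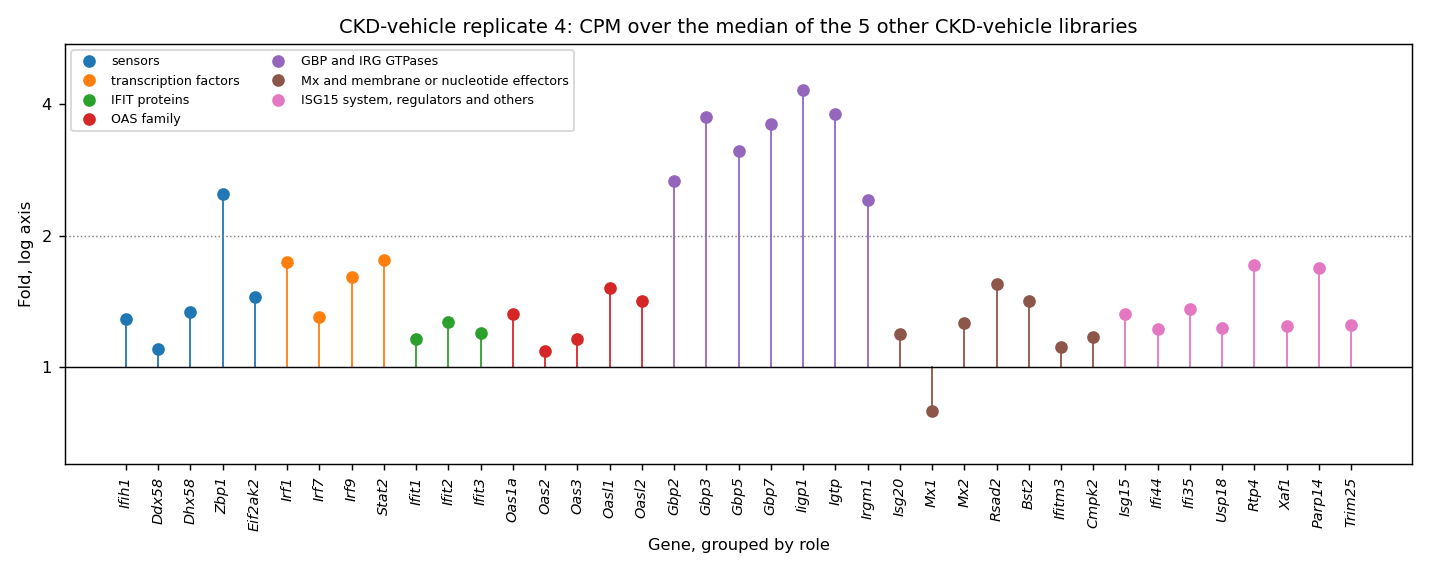
CPM of each of the 39 genes in CKD-vehicle replicate 4 divided by the median of the 5 other CKD-vehicle libraries, on a log axis, coloured by role. The dotted line marks 2-fold. All 7 GTPases and Zbp1 lie above it, and the other genes below.

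Summed markers of T and NK cells, macrophages and endothelium lay within the range of the group in that library. The T and NK cell list (11 genes, 8 past the filter) summed to 1.75 CPM there, with Cd3g at 0 counts, against 1.69 to 10.7 CPM in the other 5 CKD-vehicle libraries. The macrophage and leukocyte list (15 of 15 measured) summed to 191 CPM, against 186 to 327, and the endothelial list (9 of 9) to 1417 CPM, against 1087 to 1585. Ifng itself had 0 counts there, which allows up to 0.0904 CPM, a limit that covers counting error only, and 17 counts in all, spread over 10 of the 28 libraries. B cell markers (5 of 5 measured) summed to 7.11 CPM there, against 4.69 to 131 CPM.

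The group differences of the GTPases rested on that library. For CKD-vehicle against sham-vehicle all 7 estimates were above 0 (0.20 to 0.70 on the log2 scale), against 44.4% of all genes. Irgm1, Iigp1 and Igtp had an unadjusted p under 0.05, against 4.46% of all genes. Their log2 differences were 0.44 ± 0.18, 0.70 ± 0.30 and 0.69 ± 0.30, each with an adjusted p of 0.955 (edgeR). Without replicate 4 they were 0.11, 0.05 and 0.07, 3 of the 7 estimates were above 0, and 0.00412% of all genes passed, none of the 39 among them. For CKD-Oxf against CKD-vehicle all 7 estimates were below 0, while 53.2% of all genes had estimates above 0. Iigp1 was at -0.93 ± 0.32 (adjusted p = 0.256, edgeR) and Irgm1 at -0.54 ± 0.20 (adjusted p = 0.276, edgeR). Without replicate 4 these were -0.31 and -0.23, and 5 of the 7 remained below 0. The 2 comparisons share the CKD-vehicle libraries, so their opposite signs are not independent.

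For sham-Oxf against sham-vehicle, which does not use that library, 6 of the 7 GTPase estimates were below 0 (median -0.34), against a median of -0.04 over all genes. Gbp2 stood at 10.4, 12.2, 15.8, 14.6 and 16.0 CPM in sham-Oxf and at 13.9, 16.8 and 26.0 CPM (lowest, median and highest) in sham-vehicle. The ranges overlapped, and the log2 difference was -0.43 ± 0.22 (adjusted p = 0.424, edgeR). Gbp5 was the exception, with 0.32 ± 0.26 on the log2 scale. Within sham-vehicle, replicate 3 was the highest for Iigp1, at 54.7 CPM, and for Igtp, at 19.4 CPM, so the sham mice also differed among themselves.

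**Figure D5:**
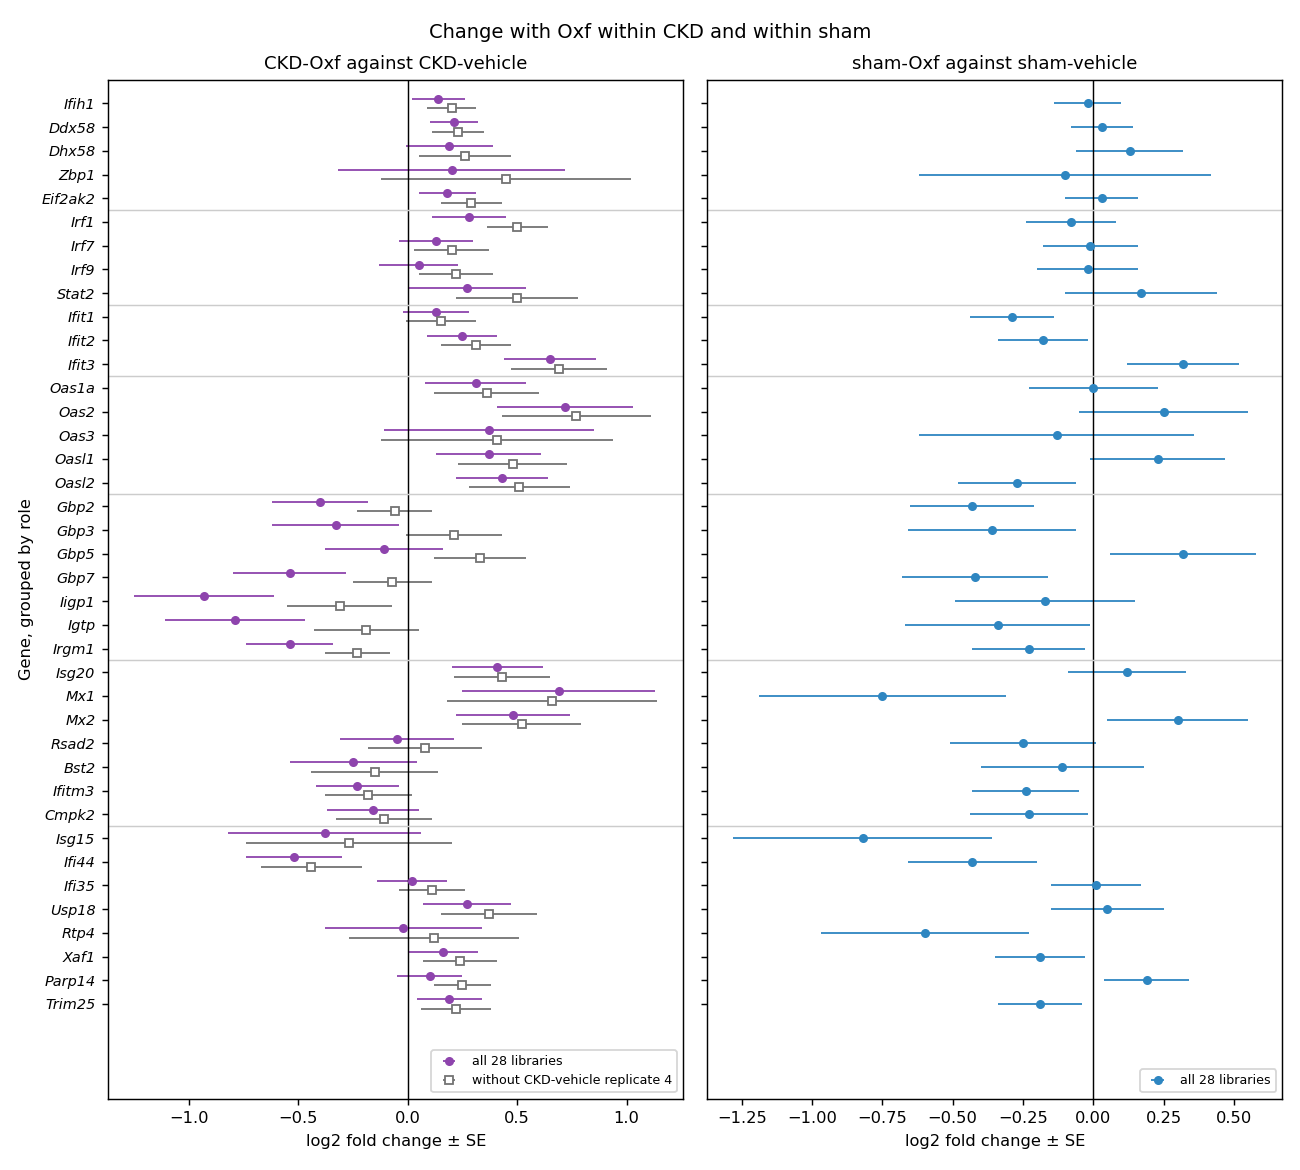
Log2 fold change with Oxf ± SE of each of the 39 genes, within CKD (left) and within sham (right). Squares leave out CKD-vehicle replicate 4. The GTPases move toward or past 0 when it is left out, with Iigp1 going from -0.93 to -0.31, while within CKD Ifit3 and the OAS genes stay above 0. Within sham Oasl2 lies at -0.27 and Oas3 at -0.13.

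The Mx, membrane and nucleotide effectors act on virus entry, assembly or nucleotide supply. Bst2 tethers budding particles, Rsad2 (viperin) and its neighbour Cmpk2 make a chain-terminating nucleotide, Isg20 is an exonuclease, and Mx2 is the second Mx GTPase. Ifitm3, the most abundant of them by CPM, had lowest, median and highest levels of 12.3, 21.9 and 29.9 CPM in sham-vehicle, 16.1, 22.4 and 26.7 in CKD-vehicle and 12.9, 17.3 and 26.5 in CKD-Oxf. In sham-Oxf it was 21.2, 17.8, 25.7, 15.6 and 13.9 CPM. Its log2 difference for Oxf averaged over surgery was -0.23 ± 0.13 (adjusted p = 0.295, edgeR), and it passed only with limma voom. Mx1 was at 0 counts in sham-Oxf replicate 1, where 3 counts would be 0.142 CPM, and at most 2.76 CPM in any library. Its interaction was 1.44 ± 0.62 on the log2 scale (adjusted p = 1.000, edgeR), from counts of about 1 CPM.

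ISG15 is a ubiquitin-like protein that is attached to other proteins, Usp18 removes it and damps the receptor, and Trim25 activates RIG-I. Rtp4, Xaf1, Ifi35 and Ifi44 are induced genes with regulatory roles. Isg15 was low in heart, with lowest, median and highest levels of 1.09, 1.76 and 3.68 CPM in sham-vehicle, 0.955, 2.38 and 3.07 in CKD-vehicle and 0.801, 1.55 and 3.77 in CKD-Oxf. In sham-Oxf it was 0, 1.08, 1.70, 1.35 and 1.35 CPM. The library at 0 counts (a limit of 0.142 CPM that covers counting error only) is replicate 1, with 15879 genes detected at 19.8 M counts. Sham-vehicle replicate 2, at a similar 22.3 M, had 31238 genes with a count and 36 counts of Isg15. The log2 difference of Isg15 for Oxf averaged over surgery was -0.60 ± 0.32 (adjusted p = 0.253, edgeR). Isg15, Mx1, Oas3, Rtp4 and Zbp1 were each at 0 counts in sham-Oxf replicate 1 alone.

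Ifi44 had the second smallest p of the 39 for Oxf averaged over surgery. Its lowest, median and highest levels were 1.57, 3.22 and 4.79 CPM in sham-vehicle, 1.89, 3.88 and 4.70 in CKD-vehicle and 1.90, 2.32 and 3.23 in CKD-Oxf. The sham-Oxf libraries stood at 2.85, 1.71, 2.39, 2.30 and 2.71 CPM, below the sham-vehicle median in each case, with overlapping ranges. The log2 difference was -0.48 ± 0.16 (adjusted p = 0.0823, edgeR) and passed with DESeq2 and limma voom. With the clock score as a covariate it was -0.07 (adjusted p = 0.970, edgeR), and with the log2 share of 7SL RNA -0.17 (adjusted p = 0.509, edgeR). In CKD, gavage and clock score cannot be told apart, and whether clock phase has a part in the Ifi44 difference was not tested. Parp14, the most abundant of these 8 genes by CPM, ran from 47.0 CPM in CKD-vehicle replicate 3 to 105 CPM in replicate 4 of the same group.

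Averaged over surgery, 9 of the 39 genes had an unadjusted p under 0.05 for Oxf, 3 higher (Ifit3, Oas2 and Mx2) and 6 lower (Ifi44, Irgm1, Gbp2, Gbp7, Igtp and Iigp1), against 11.5% of all genes higher and 11.5% lower. Of the 6 lower genes 5 are GTPases. Without CKD-vehicle replicate 4 Iigp1 went from -0.55 to -0.25 on the log2 scale, Igtp from -0.57 to -0.27, Gbp7 from -0.48 to -0.25, Gbp2 from -0.41 to -0.25 and Irgm1 from -0.39 to -0.24. Iigp1, Igtp and Gbp7 were then no longer under an unadjusted p of 0.05. Gbp5 (0.31), Irf1 (0.20) and Parp14 (0.21) came under it instead, all higher. The omitted library was the highest of all 28 for each of these genes and was singled out after its values were seen. With all libraries the median log2 difference was 0.03, against 0.00 over all genes tested. With other tools the averaged comparison called 2 of the 39 with DESeq2 (Ifit3 higher and Ifi44 lower, against 9.97% of all genes) and 4 with limma voom (Bst2, Ifi44, Ifitm3 and Isg15, all lower, against 22.0%). For CKD-Oxf against CKD-vehicle limma voom called 5 (Ifit3 higher; Ifi44, Iigp1, Irgm1 and Isg15 lower, against 15.0%) and DESeq2 none (1.75%), with 29 of the 39 given an adjusted p. Leaving out CKD-Oxf replicate 4 gave 4 calls by edgeR in the averaged comparison (Ifit3 and Oas2 higher, Ifi44 and Gbp2 lower, against 13.9% of all genes). Leaving out CKD-vehicle replicate 5 gave 1 (Ifi44, against 7.83% of all genes). Leaving out sham-Oxf replicate 2 or CKD-Oxf replicate 7 gave 1 each (Ifit3, against 1.66% and 2.31%). CKD averaged over gavage gave a median of 0.13 with 34 of 39 estimates above 0 (30 of 39 with upper quartile scaling), against 49.9% of all genes. Without CKD-vehicle replicate 4 the median was 0.05 and 26 of 39 were above 0. The smallest p was that of Irgm1, at 0.29 ± 0.14 on the log2 scale (adjusted p = 0.470, edgeR), and without that library it was at 0.11 ± 0.10 (adjusted p = 0.783, edgeR).

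The genes varied together from mouse to mouse. After group means were removed, the mean pairwise correlation of log2 CPM across the 28 libraries was 0.31 over the 39 genes and 0.06 over all genes tested. It was 0.83 among the GTPases and 0.68 among the transcription factors, and 0.36 among the IFIT genes and 0.19 among the OAS genes. Without CKD-vehicle replicate 4 and sham-Oxf replicate 1 the GTPases kept 0.79 and the 39 genes 0.31. Gbp3 and Gbp7 had the highest pair value (0.95), followed by Gbp3 and Irgm1 (0.93), while Oas2 and Ifitm3 moved oppositely (-0.63). These values describe genes that share libraries, depth and RNA composition. CKD-Oxf replicate 3 held the highest value of 10 of the 39 genes, among them Oas2, Irf7, Stat2 and Ddx58, against 2.97% of all genes tested.

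The interferons themselves were scarcely present. Of 21 listed ligands, 15 are in the table and 2 were tested, Ifnk and Ifnz. The 10 Ifna genes in the table and Ifnab had at most 4 counts in any library. Ifnz had the smallest p of the list for CKD-vehicle against sham-vehicle, with a log2 difference of 1.31 ± 0.52 (adjusted p = 0.955, edgeR), on 257 counts in all over 28 libraries. Its highest library was also CKD-vehicle replicate 4, at 0.995 CPM from 33 counts, 4.17-fold above the median of the other 5 of its group. Without that library the difference was 0.76 ± 0.53 (adjusted p = 0.981, edgeR).

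The receptors and their signalling genes (16 tested) gave 0 past an adjusted p of 0.05 in each of the 7 comparisons (edgeR), with 4 at an unadjusted p under 0.05 for Oxf averaged over surgery, against 23.0% of all genes. The smallest was Irf2bp1, a corepressor of IRF2, at 0.23 ± 0.09 on the log2 scale (adjusted p = 0.110, edgeR). Of 22 tested genes of the induction pathway 1 rose, against 2.81% of all genes called in either direction. It was Traf3, the adaptor between the sensors and the kinase TBK1. Its log2 difference for Oxf averaged over surgery was 0.39 ± 0.10 (adjusted p = 0.0391, edgeR).

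Of 79 other interferon-induced genes tested, 2 rose and 1 fell for Oxf averaged over surgery, near the 2.81% of all genes. Ifi27l2a, a gene strongly induced by type I interferon, fell by 1.38 ± 0.37 on the log2 scale (adjusted p = 0.0444, edgeR). Ifit3b, the near copy of Ifit3, rose by 0.54 ± 0.15 (adjusted p = 0.0456, edgeR). Oas1c, a paralogue of Oas1a, rose by 1.00 ± 0.28 (adjusted p = 0.0473, edgeR). Sham-Oxf replicate 1 was the highest library for both, at 12.0 CPM for Ifit3b and 5.17 CPM for Oas1c. Without it the log2 differences were 0.37 (adjusted p = 0.0678, edgeR) and 0.58 (adjusted p = 0.0953, edgeR), and Traf3 was at 0.32 (adjusted p = 0.0543, edgeR). Ifi27l2a, at 0 CPM in that library, was then at -1.23 (adjusted p = 0.0395, edgeR). With the clock score as a covariate none of the 4 passed, with adjusted p-values from 0.562 to 0.685 (edgeR).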

How the data were processed

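The authors deposited raw counts per gene for the 28 libraries in a single table, whole numbers with no normalisation. Per the submitters' processing notes STAR 2.6.1d, featureCounts 1.6.3 and the mm10 build were used. The annotation, the use of strand and the treatment of reads that match several genes are not given in the sources used here. Positions came from GENCODE M21 (GRCm38), in which 45465 of the 45513 gene identifiers were found.

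The main test was that of edgeR 4.0.16 under R 4.3.3, after TMM scaling (filterByExpr by group with a minimum count of 10, robust quasi-likelihood fit of 4 group means, 7 contrasts, two-sided). Adjusted p-values are Benjamini-Hochberg values over 24273 genes, with a threshold of 0.05. CPM carries the TMM factors, and scores and correlations use log2 CPM with a prior count of 2. The SE is the absolute log2 difference over the square root of F. No source names separate cultures or litters, and each library is 1 mouse. The fit was tested on simulated data. Alternatives were DESeq2 1.42.0, limma 3.58.1 voom with sample weights, other scalings, filters and prior counts, covariates, and each library left out in turn. Leaving out CKD-vehicle replicate 4 and sham-Oxf replicate 1 together was added after seeing the data. Members, lists and roles were chosen with earlier results of these data known. Values are named for members with the 3 smallest p in a contrast, the most abundant of each role, and Isg15, Ifit1, Irf7 and Stat2. Other members and the pathway genes of CKD-vehicle replicate 4 are named after their values were seen.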

Additional observations from a re-analysis of the deposited data

Results flagged for a closer look

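For the 18 genes named by rule and the 8 scores, 104 group comparisons asked whether the most extreme library stood off from the rest of its group, by its gap to the nearest library over the range of the group (Dixon's 95% limit). Of these 13 passed, where about 5.20 would by chance if the measures were independent and chosen without these data. Many of the genes were named for a small p in these same libraries, and genes and scores vary together. The count of 13 therefore describes the libraries and tests nothing. CKD-vehicle replicate 4 accounted for 5, as the highest library for the GTPase score (0.720), Iigp1 (0.834), Irgm1 (0.721), Igtp (0.677) and Gbp3 (0.642). The Iigp1 level there was 133 CPM against 36.1 CPM in the next library of the group. Sham-Oxf replicate 1 accounted for 3, as the lowest for Isg15 (0.877), for the score of the ISG15 system, regulators and others (0.870) and for Mx1 (0.740). It had 0 counts of Isg15 and Mx1, the lowest total, 19.8 M counts, and the fewest genes with a count, 15879.

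The other 5 fell on 5 libraries. Sham-Oxf replicate 2 was lowest for the IFIT score (0.829), and CKD-Oxf replicate 7 for the score of Mx and membrane or nucleotide effectors (0.778). CKD-vehicle replicate 5 was lowest for Ifi44 (0.708), at 1.89 CPM. Sham-vehicle replicate 4 was lowest for Ifit3 (0.489), at 4.30 CPM, and sham-vehicle replicate 3 highest for Irf7 (0.571), at 13.1 CPM.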

How the results depend on the processing

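Of 252 alternatives to the score differences over the 39 genes, none moved a difference by 1 SD between mice, but 5 turned its direction. CKD-vehicle against sham-vehicle (0.038) was -0.020 without the GTPases, -0.109 without CKD-vehicle replicate 4 and -0.080 without that library and sham-Oxf replicate 1. Oxf averaged over surgery (-0.073) was 0.006 with the median over genes and 0.038 without both libraries. With 1 library left out at a time CKD-Oxf against CKD-vehicle ran from 0.011 to 0.182, and Oxf averaged over surgery from -0.107 to -0.021. Of 270 alternatives to the counts of genes called, 261 gave the same count. The 9 others concern calls where edgeR with all libraries made 0. With limma voom CKD-Oxf against CKD-vehicle called 5 genes and Oxf averaged over surgery 4. The averaged comparison called 2 with DESeq2, 2 of 34 tested with at least 10 counts in every library, and 1 with upper quartile scaling. With single libraries left out it called between 0 and 4, the 4 without CKD-Oxf replicate 4, and the remaining 6 comparisons called 0 each time. All 959 alternatives for single named results kept their direction. No paired analysis was possible because the replicate numbers are positions in the order of the records. Each group holds 5 to 10 mice, and genes near 1 CPM, such as Mx1, Zbp1 and Oas3, rest on few counts.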
